A study of Mus musculus with 24 samples.

Results

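The SLAM family receptors and their adaptor SAP were followed in mouse CD4 T cells as 7 genes, chosen by symbol from the 23420 genes of the count tables: the receptor genes Slamf1 (CD150), Slamf6 (Ly108), Slamf7 (CRACC), Cd48, Cd84 and Ly9 (CD229), and Sh2d1a, which encodes SAP. All 7 were found and all 7 passed the filter on low counts, which left 12584 genes to be tested. The cells bore OT-II transgenes for a T cell receptor against an ovalbumin peptide, along with a reporter transgene of Nr4a1, the gene of Nur77, whose promoter drives GFP and Cre. All 4 groups share both transgenes (genotype OT2Nur77GFP+/- on a C57/BL6 background), and each holds 6 libraries. Naive cells were taken from spleens, activated naive cells were stimulated for 6 hours with a stimulus that the labels used here do not name, TH1 effector cells were differentiated in culture for 5 days, and reactivated TH1 cells were such effectors that then spent 6 hours with antigen-loaded macrophages. No age or sex of the animals is given in the labels used here. Whether libraries of 1 group stem from different mice or wells is not stated either, and p-values therefore cover only the spread among these libraries, which may be technical.

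SLAM family receptors are immunoglobulin-like proteins of blood cells. Most bind their own kind on a neighbouring cell, whereas CD48 is held in the membrane by a lipid anchor and binds CD2 and 2B4 (Cd244). The tails of several of the signalling receptors carry tyrosine switch motifs that dock SAP, a small SH2-domain protein that recruits the kinase FYN. Without SAP the same motifs can recruit inhibitory phosphatases. In CD4 T cells SAP is known for its part in contacts with B cells, in follicular helper cells and in interleukin 4 production, and its loss in people causes X-linked lymphoproliferative disease.

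Counts on genes ranged from 18457653 to 34262645 per library, in 2 sequencing runs with numbers 1 to 3 and 4 to 6 of every group. All 7 T cell markers fixed as a list (Cd3d, Cd3e, Cd3g, Cd4, Cd28, Cd5 and Lck) were present in every group, with a summed level between 2573 and 4474 CPM (counts scaled to library size). The summed level of 19 macrophage markers was 24.5 to 34.1 CPM in reactivated TH1 libraries, against 5.85 to 10.4 CPM in TH1 effector libraries. Naive libraries had 8.31 to 13.2 CPM and activated naive ones 10.8 to 14.4 CPM. In reactivated TH1 libraries 18 of these 19 had counts and Marco had none, while in TH1 effector libraries 8 had none, among them Csf1r, Fcgr1, C1qa and Emr1 (F4/80). The summed level of 8 B cell markers reached 21.9 CPM in 1 TH1 effector library, with a median of 4.66 CPM in that group, and that of 6 dendritic cell markers was 7.09 to 10.6 CPM in reactivated TH1 against 1.51 to 3.60 CPM in TH1 effector libraries. The summed level of 6 CD8 and NK cell markers was 28.6 to 34.6 CPM in naive, 4.82 to 8.08 CPM in activated naive, 38.9 to 60.3 CPM in TH1 effector and 25.5 to 54.1 CPM in reactivated TH1 libraries, and the NK marker Ncr1 had no count outside the TH1 effector group, where it averaged 0.0076 CPM.

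The 6 receptor genes lie together on chromosome 1 (mm10, GENCODE M21) within 364.5 kb, from 171588624 to 171953170. Their order is Ly9 (171588624 to 171607410) and Slamf7 (171632403 to 171653035), both on the minus strand, then Cd48 (171682009 to 171705258), Slamf1 (171767127 to 171801184), Cd84 (171839697 to 171890718) and Slamf6 (171917515 to 171953170) on the plus strand. Sh2d1a lies on chromosome X (42502453 to 42529330, plus strand). Ly9 lies wholly within the span of Cd244a on the other strand, with no shared exon bases, and the row named Cd244 held at most 16 counts in a library. Slamf7 shares 9.24% of its exon bases with the antisense gene Gm37787, and Sh2d1a shares 26.6% of its exon bases with Tenm1 on the other strand, a gene that had 0 to 21 counts in all per group. As the strand setting of the counting is not given, the values of these members are uncertain to that extent.

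The promoters of 4 receptors are shown because the genes sit side by side and yet moved in opposite directions in stimulated naive cells, Slamf7 and Slamf1 up and Cd48 and Slamf6 down. Each run holds the 250 bases before the RefSeq start (GRCm38.p6), 5′ to 3′ on the strand of the gene, and capitals mark matches to the motifs named after them. They lie at chr1:171649000-171649249 on the minus strand for Slamf7, and on the plus strand at chr1:171766882-171767131 for Slamf1, chr1:171681742-171681991 for Cd48 and chr1:171917212-171917461 for Slamf6. The Slamf7 window lies wholly inside the GENCODE span of that gene, 1 transcript of which starts further upstream, and 8 of its bases are in an exon. The Slamf1 window holds 5 bases of the first exon, and those of Cd48 and Slamf6 lie outside their genes. A stretch just after the RefSeq start lies in a GENCODE transcript for Slamf7, Slamf1 and Cd48. For Slamf6 it does not, and GENCODE starts that gene further downstream, at 171917515.
Slamf7: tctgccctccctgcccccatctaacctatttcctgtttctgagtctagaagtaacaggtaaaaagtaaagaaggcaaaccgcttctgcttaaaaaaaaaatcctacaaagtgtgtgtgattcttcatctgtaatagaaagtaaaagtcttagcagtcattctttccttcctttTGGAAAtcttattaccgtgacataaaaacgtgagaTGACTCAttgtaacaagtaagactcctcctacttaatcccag
Slamf1: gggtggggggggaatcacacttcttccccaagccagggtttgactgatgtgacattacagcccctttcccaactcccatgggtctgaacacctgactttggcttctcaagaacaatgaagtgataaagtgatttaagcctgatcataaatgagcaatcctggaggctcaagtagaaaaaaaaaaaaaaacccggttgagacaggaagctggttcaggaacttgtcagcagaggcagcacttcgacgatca
Cd48: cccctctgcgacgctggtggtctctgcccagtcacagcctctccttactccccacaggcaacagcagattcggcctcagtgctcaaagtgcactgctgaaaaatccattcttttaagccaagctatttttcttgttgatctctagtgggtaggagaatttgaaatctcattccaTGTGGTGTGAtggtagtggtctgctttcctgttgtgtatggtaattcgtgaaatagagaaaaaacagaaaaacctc
Slamf6: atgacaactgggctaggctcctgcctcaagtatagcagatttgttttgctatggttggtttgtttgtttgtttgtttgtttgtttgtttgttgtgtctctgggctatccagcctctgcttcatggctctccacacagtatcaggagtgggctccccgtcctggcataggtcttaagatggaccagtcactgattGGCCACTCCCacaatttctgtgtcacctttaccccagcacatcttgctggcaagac

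Both strands of these windows were searched for 7 motifs of factors known from T cell activation and TH1 cells. A match to the AP-1 motif TGANTCA is in 6.75% of 32851 promoter windows of this length, the NFAT core TGGAAA in 18.6%, the NR4A motif AAAGGTCA in 1.34% and the T-box motif GGTGTGA in 3.33%. The kappaB motif is in 17.6%, the RUNX core TGTGGT in 14% and the STAT motif TTCNNNGAA in 7.02%. Slamf7 held an NFAT match starting at position −77 and an AP-1 match at −42, counted back from the start. Cd48 held overlapping RUNX and T-box matches at −76 and −73, Slamf6 held a kappaB match on its other strand at −56, and Slamf1 held no match to any of the 7. Cd84, whose window is not printed, held an AP-1 match at −229 and overlapping RUNX and kappaB matches at −45 and −42. These matches are letters only, and binding was not measured here.

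Activated naive libraries were first set against naive ones, to see the SLAM genes 6 hours into a stimulus. Slamf1, a self-binding receptor that is also known as a coreceptor of T cells, and Slamf7, a self-binding receptor best known from NK and plasma cells, rose steeply. Slamf6, Cd48, Ly9 and the adaptor gene Sh2d1a fell, and Cd84 did not pass the test. In all, 6 of 7 members passed, 2 higher and 4 lower, where 81.9% of all tested genes passed (41.3% higher and 40.5% lower), so that the count itself is near the background. The median absolute log2 fold change of the 7 was 2.15, against 0.92 over all genes tested. The libraries of the 2 groups did not overlap for 6 members, as for 66.4% of all tested genes. Of 4 tested CD8 and NK markers 3 fell in the same comparison, Cd8b1 from 26.3 to 5.27 CPM (log2 −2.33), Klrd1 from 4.23 to 0.189 CPM and Cd8a from 0.840 to 0.279 CPM, and their part in the falls of the members was not tested. Of the 7 T cell markers 5 fell and 2 rose. Cd4 itself went from 926 to 132 CPM (log2 −2.81), while Cd5 went from 169 to 1396.5 CPM (log2 3.05). In bulk RNA, fewer cells with a transcript and less of it per cell cannot be told apart. CPM are also relative to the other RNA of a library, so amounts per cell were not measured.

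Slamf1 ranged in level from 23.5 to 29.0 CPM in naive libraries (median 26.5) and from 516 to 802 CPM in activated naive libraries (median 607). Every stimulated library was thus far above every naive one, and the rise was 23.6-fold (log2 4.56, SE 0.13, adjusted p = 1.16e-19). Slamf7 had between 4 and 12 counts in each naive library, a level of 0.188 to 0.480 CPM, and between 2515 and 6056 counts in each activated naive library, where its lowest level was 116 and its median 161.7 CPM. It went from near absence to the level of the other receptors, with a log2 fold change of 8.93 (SE 0.24, adjusted p = 4.32e-16), and 0.278% of tested genes changed more.

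Slamf6, whose product is a self-binding receptor with a large part in SAP signalling, had 162.5 to 194 CPM in naive libraries (median 178) and 31.0 to 40.9 CPM after stimulation (median 35.7). The groups were widely separate, and it fell 4.98-fold (log2 −2.32, SE 0.14, adjusted p = 4.90e-14). Cd48 went from 112 to 139 CPM (median 119) in naive to 28.0 to 44.5 CPM (median 36.1) in activated naive libraries and fell 3.33-fold (log2 −1.74, SE 0.08, adjusted p = 1.09e-16). Ly9, another self-binding receptor, was at 201 to 227 CPM and then at 138 to 187 CPM, a small fall of 1.29-fold (log2 −0.37, SE 0.08, adjusted p = 0.000145) without overlap of the groups. Cd84, a self-binding receptor known from contacts of T and B cells, was at 187 to 250 CPM in naive and 215 to 257 CPM in activated naive libraries. These ranges overlap, and the log2 fold change was 0.08 (SE 0.09, adjusted p = 0.345).

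Sh2d1a fell together with Slamf6 and Cd48. Its level was 42.6 to 53.0 CPM in naive libraries (median 47.6) and 7.45 to 13.3 CPM in activated naive libraries (median 10.4). The highest stimulated library was far below the lowest naive one, and the fall was 4.45-fold (log2 −2.15, SE 0.11, adjusted p = 8.99e-16). Within the first run the log2 fold change was −2.08 and within the second −2.22.

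**Figure D1:**
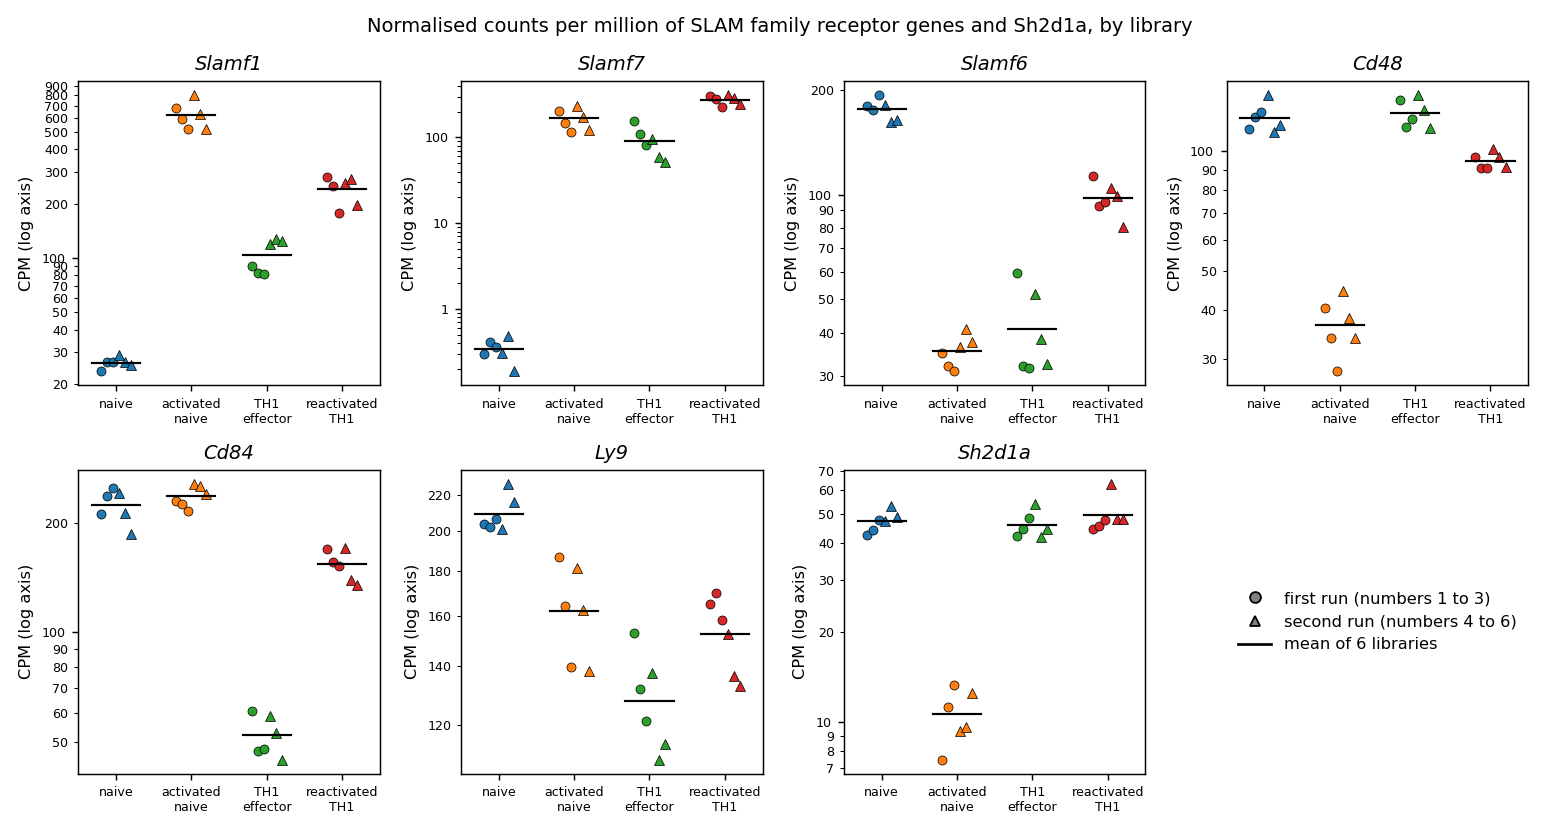
Level of each gene in CPM on a log axis (y) in the 4 groups (x), with a circle for each library of the first run, a triangle for each of the second and a line at the mean of 6. Slamf1 and Slamf7 are lowest in naive libraries, and Sh2d1a stands at 7.45 to 13.3 CPM in activated naive libraries against 41.7 CPM or more in every other group.

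TH1 effector libraries were next set against naive ones, to see the outcome of 5 days of differentiation. Slamf1 and Slamf7 were higher in the effectors, Slamf6, Cd84 and Ly9 were lower, and Cd48 and Sh2d1a did not pass the test. Of the 7 members 5 passed, 2 higher and 3 lower, where 84.9% of tested genes passed (44.6% higher and 40.3% lower), and all 5 had no overlap of libraries, as did 69.0% of tested genes. This comparison shares its naive libraries with the first, so the values are given side by side without a measure of likeness.

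Slamf7 had 52.1 to 154 CPM in TH1 effector libraries (median 89.3), 265-fold above naive (log2 8.05, SE 0.24, adjusted p = 3.90e-15). Slamf1 had 81.3 to 128 CPM (median 104.5), 3.92-fold above naive (log2 1.97, SE 0.13, adjusted p = 4.17e-13), with values between those of naive and of activated naive libraries. Among the CD8 and NK markers, Klrk1 averaged 0.00800 CPM in naive and 29.1 CPM in TH1 effector libraries, and Klrd1 went from 4.23 to 10.96 CPM (log2 1.36), while Cd8a and Cd8b1 fell. Klrb1c averaged 0.0226 CPM in the effectors, and the part of such cells in the rise of Slamf7 was not tested. Slamf6 had 31.6 to 59.3 CPM (median 35.4), 4.31-fold below naive (adjusted p = 3.04e-13). Its effector libraries overlapped those of activated naive cells, and these neighbours in the order of levels did not differ beyond their spread (log2 0.21, SE 0.14, adjusted p = 0.138). That difference passed with library size as the only scaling (log2 0.34, adjusted p = 0.0162) and when genes needed 10 CPM in 6 libraries (log2 0.28, adjusted p = 0.0487).

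Cd84, unmoved past the threshold in stimulated naive cells, was lower in TH1 effectors than in any other group. It had 44.5 to 60.9 CPM there (median 50.2), 4.30-fold below naive (log2 −2.11, SE 0.09, adjusted p = 1.01e-17), and the lowest library of any other group had 134.8 CPM. Ly9 was 1.64-fold lower (109 to 153 CPM, log2 −0.72, SE 0.08, adjusted p = 7.24e-09). Cd48 was at 114 to 139 CPM in effectors, overlapping the naive libraries (log2 0.04, SE 0.08, adjusted p = 0.615). Sh2d1a was at 41.7 to 54.2 CPM (log2 −0.04, SE 0.11, adjusted p = 0.716), so the low level of this adaptor gene was measured in activated naive libraries and in no other group.

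Reactivated TH1 libraries were then set against TH1 effector libraries, to see the effect of 6 hours of reactivation. Slamf1, Slamf6, Slamf7 and Cd84 rose between 2.33-fold and 3.05-fold, Ly9 rose slightly, Cd48 fell slightly and Sh2d1a did not pass the test. Of 7 members 6 passed, 5 higher and 1 lower, where 79.7% of tested genes passed (39.9% higher and 39.8% lower), and 5 did not overlap between the groups, as for 59.4% of tested genes. The median log2 fold change of the 7 was 1.22, and that of all tested genes was −0.00. As the groups hold no TH1 cells given macrophages alone, antigen, macrophages and their culture cannot be told apart.

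Cd84 rose from 44.5 to 60.9 CPM to 135 to 170.5 CPM (median 154), 2.96-fold (log2 1.57, SE 0.09, adjusted p = 5.86e-15). Slamf7 reached 229 to 314 CPM (median 285), its highest level in the 4 groups, a rise of 3.05-fold over the effectors (log2 1.61, SE 0.24, adjusted p = 4.50e-07). That rise was log2 1.22 within the first run and 2.04 within the second. Slamf6 reached 80.6 to 113 CPM (median 97.0), 2.38-fold above the effectors (log2 1.25, SE 0.14, adjusted p = 4.44e-09), and Slamf1 reached 178 to 279.5 CPM (median 256), 2.33-fold above them (log2 1.22, SE 0.13, adjusted p = 1.92e-09). None of these 4 genes had a library of one group within the range of the other.

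Macrophages are known to express several SLAM receptors, CD84, CD48 and SLAMF7 among them. Of 11 tested macrophage markers 7 rose and 1 fell in this comparison, where 79.7% of all tested genes passed (39.9% higher and 39.8% lower). The largest single macrophage markers in reactivated TH1 libraries were Mpeg1 (8.64 CPM on average) and Lyz2 (5.98 CPM), while Csf1r averaged 0.724 CPM and Fcgr1 0.291 CPM. The mean level of Cd84 rose from 52.0 to 154 CPM and that of Slamf7 from 91.9 to 277 CPM, beside a summed level of all 19 markers of at most 34.1 CPM. The part of macrophage RNA in these rises was not tested.

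Cd48 fell from 114 to 139 CPM to 90.9 to 102 CPM, 1.32-fold (log2 −0.40, SE 0.08, adjusted p = 4.48e-05), with no overlap. Ly9 had 133 to 170 CPM against 109 to 153 CPM, with overlapping libraries, and rose 1.19-fold (log2 0.25, SE 0.08, adjusted p = 0.00557). The call for Ly9 was lost with library size as the only scaling (log2 0.13, adjusted p = 0.109), when genes needed 10 CPM in 6 libraries (log2 0.17, adjusted p = 0.0540) and in the second run alone (log2 0.24, adjusted p = 0.0577). Sh2d1a was at 44.5 to 63.3 CPM (log2 0.11, SE 0.11, adjusted p = 0.326), and its highest value came from number 4.

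**Figure D2:**
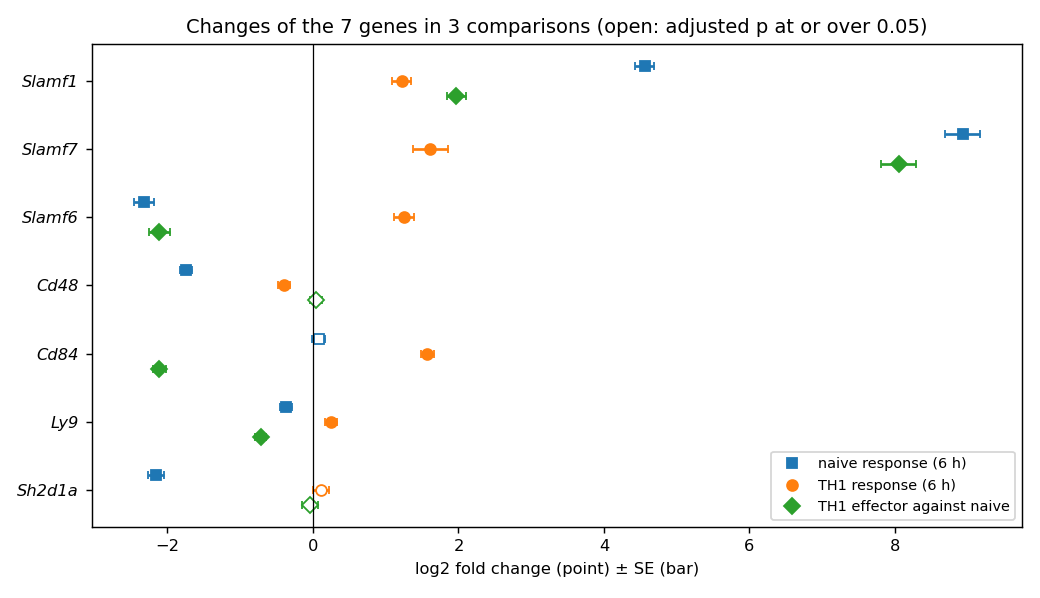
Log2 fold change of each gene (x, with a bar of 1 SE on either side) for the naive response, the TH1 response and TH1 effector against naive, with open symbols where the adjusted p was not below 0.05. Slamf6 and Ly9 lie below 0 for the naive response and above 0 for the TH1 response, and Sh2d1a lies at −2.15 and 0.11.

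The response of TH1 cells was then compared with that of naive cells by the difference of both fold changes. All 7 members passed this test, 5 higher and 2 lower in the TH1 response, where 68.0% of tested genes passed (34.3% higher and 33.7% lower). The median absolute difference of the 7 was 2.26 on the log2 scale, against 0.65 over all genes. Slamf6 and Ly9 changed in opposite directions past the threshold, with log2 fold changes of −2.32 and 1.25 for Slamf6 (difference 3.57, SE 0.19, adjusted p = 4.06e-14) and −0.37 and 0.25 for Ly9 (difference 0.62, SE 0.12, adjusted p = 2.72e-05). Slamf7 and Slamf1 rose in both, but by a smaller fold in TH1 cells, with differences of −7.32 (SE 0.33, adjusted p = 1.95e-12) and −3.34 (SE 0.18, adjusted p = 3.86e-14). For Slamf7 this holds for the fold only, as its naive libraries had 4 to 12 counts each. Its mean went from 0.339 to 166.5 CPM in the naive response and from 91.9 to 277 CPM in the TH1 response. Cd48 fell in both and by less in TH1 cells (difference 1.33, SE 0.12, adjusted p = 7.60e-11). For Cd84 the difference was 1.48 (SE 0.12, adjusted p = 2.67e-11) and for Sh2d1a 2.26 (SE 0.16, adjusted p = 9.99e-13). The arms differ in their stimulus and culture as well as in cell state, and these cannot be told apart.

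Set directly against each other, the stimulated states differed in 6 of 7 members, 4 higher and 2 lower in reactivated TH1 than in activated naive libraries, where 79.8% of tested genes passed (43.4% higher and 36.4% lower). The libraries did not overlap for 5 members, as for 60.2% of tested genes. Sh2d1a was 4.67-fold higher in reactivated TH1 libraries (log2 2.22, SE 0.11, adjusted p = 1.10e-15), Slamf6 2.75-fold and Cd48 2.60-fold higher. Slamf7 was 1.66-fold higher (log2 0.73, SE 0.24, adjusted p = 0.00271) with overlapping libraries. Slamf1 was 2.58-fold lower (log2 −1.37, SE 0.13, adjusted p = 2.41e-10) and Cd84 1.54-fold lower. Ly9 did not pass (log2 −0.09, SE 0.08, adjusted p = 0.290).

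Across the 4 groups Slamf1 was ordered naive, TH1 effector, reactivated TH1 and activated naive from low to high, and each neighbour in that order differed past the threshold. Slamf7 was ordered naive, TH1 effector, activated naive and reactivated TH1. Its middle pair differed (log2 −0.88 for TH1 effector against activated naive, SE 0.24, adjusted p = 0.000514) with overlapping libraries, and not in the first run alone (log2 −0.40, adjusted p = 0.141), against −1.38 in the second. For Cd84 the order was TH1 effector, reactivated TH1, naive and activated naive, with no difference past the threshold between the last 2. For Ly9 it was TH1 effector, reactivated TH1, activated naive and naive, and the middle pair did not differ beyond its spread. Slamf6 was highest in naive libraries, with reactivated TH1 1.81-fold lower (log2 −0.86, SE 0.14, adjusted p = 1.09e-06). Cd48 was lowest in activated naive libraries, and reactivated TH1 was 1.28-fold below naive (log2 −0.36, SE 0.08, adjusted p = 0.000136). Sh2d1a in naive, TH1 effector and reactivated TH1 libraries did not differ past the threshold in any pair of these 3 groups. Reactivated TH1 against naive had 6 of 7 members past the threshold, 2 higher and 4 lower, where 87.6% of tested genes passed (47.9% higher and 39.8% lower), and 6 without overlap, as for 75.4%. There the median absolute log2 fold change of the 7 was 0.54, below the 1.09 of all tested genes. TH1 effector against activated naive likewise had 6, 2 higher and 4 lower, at 86.9% of tested genes (45.6% higher and 41.2% lower), and 4 without overlap, as for 71.2%.

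Levels of different genes were compared per kilobase of exon. In naive libraries Cd48 led with 102 ± 8.32 CPM per kb (mean ± SD, n = 6), ahead of Ly9 with 63.3 ± 3.04 and Cd84 with 35.7 ± 3.80, an order seen in 6 of 6 libraries. In activated naive libraries Slamf1 led with 101 ± 17.7 CPM per kb, also in 6 of 6. Its share of the summed level of the 6 receptors was 1.93 ± 0.0731% in naive and 39.0 ± 1.12% in activated naive libraries, while that of Cd48 was 46.0 ± 1.80% and 11.9 ± 0.560%. In TH1 effector libraries Cd48 again led with a share of 54.6 ± 2.57%. Reactivated TH1 libraries had 30.9 ± 1.76% for Cd48, 23.3 ± 1.17% for Slamf7 and 15.0 ± 1.73% for Slamf1. These shares rest on the exon length taken for each gene. With the longest coding transcript in its place, chosen after the data were seen, Cd48 led in naive and TH1 effector libraries and Slamf1 in activated naive libraries as before, but shares moved by over 1.5 times, for Cd48 in activated naive libraries to 6.93% and for Slamf1 in naive libraries to 3.34%. Slamf1 rather than Cd48 led in reactivated TH1 libraries (24.5% against 22.2%).

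**Figure D3:**
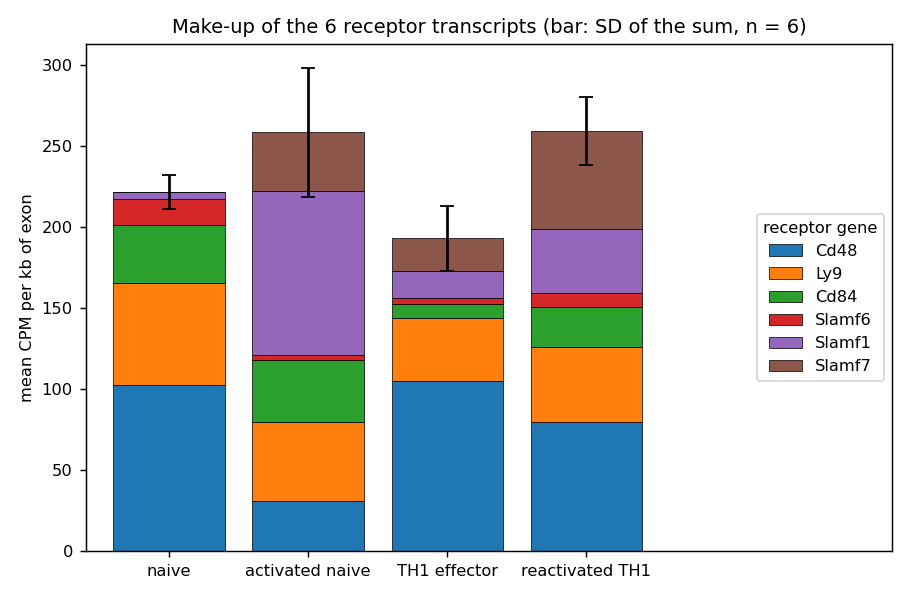
Stacked mean levels of the 6 receptor genes in CPM per kb of exon (y) in the 4 groups (x), with a bar of 1 SD of their sum over 6 libraries. The sums are 222, 258, 193 and 259 CPM per kb, and Slamf1 takes 101 CPM per kb in activated naive libraries against 4.27 in naive ones.

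Summed over the 6 receptors, the level was 222 ± 10.5 CPM per kb in naive and 258 ± 39.7 in activated naive libraries. For TH1 effector libraries it was 193 ± 20.0, and for reactivated TH1 libraries 259 ± 20.97 CPM per kb. The ratio of that sum to Sh2d1a was 22.4 to 27.7 in naive libraries, 20.5 to 29.1 in TH1 effector and 24.3 to 34.7 in reactivated TH1 libraries. In activated naive libraries it was 87.7 to 211, above every library of the other groups. The sum counts Cd48, whose product is lipid-anchored, so the ratio does not measure SAP-docking receptors alone. Which of the other receptors dock SAP in these cells was not measured. Cd48 made up 46.0% of the sum for naive cells, 11.9% once these were activated, 54.6% for TH1 effectors and 30.9% after their reactivation. Slamf7 made up 0.0334%, 13.9%, 10.2% and 23.3% in the order naive, activated naive, TH1 effector and reactivated TH1. A ratio without Cd48 or Slamf7 was not computed, and whether the groups would then be as alike was not tested. With the longest coding transcripts the mean ratios were 7.60, 54.4, 6.47 and 9.02 in the order naive, activated naive, TH1 effector and reactivated TH1, again highest in activated naive libraries.

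Genes on both sides of the receptor cluster were read as neighbours of it. Within the cluster Cd244 was below the filter and Gm10521 was not among the rows. Of the 6 nearest tested coding genes outside it, Vangl2, a planar polarity gene next to Slamf6, fell in stimulated naive cells (log2 −2.49, adjusted p = 2.31e-13, from 3.43 to 0.615 CPM) and did not pass in reactivated TH1 cells (log2 0.27, adjusted p = 0.110). Ncstn, a gamma-secretase gene, did not pass in stimulated naive cells (log2 0.05, adjusted p = 0.369) and rose 1.16-fold on reactivation (log2 0.21, adjusted p = 0.00159). Copa, a coat protein gene of transport vesicles, changed by log2 0.35 and 0.27, Tstd1 by −0.63 and −0.60, and Alyref2 by −0.56 and −0.48. These changes of Copa, Tstd1 and Alyref2 all passed the test. F11r did not pass in either response.

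**Figure D4:**
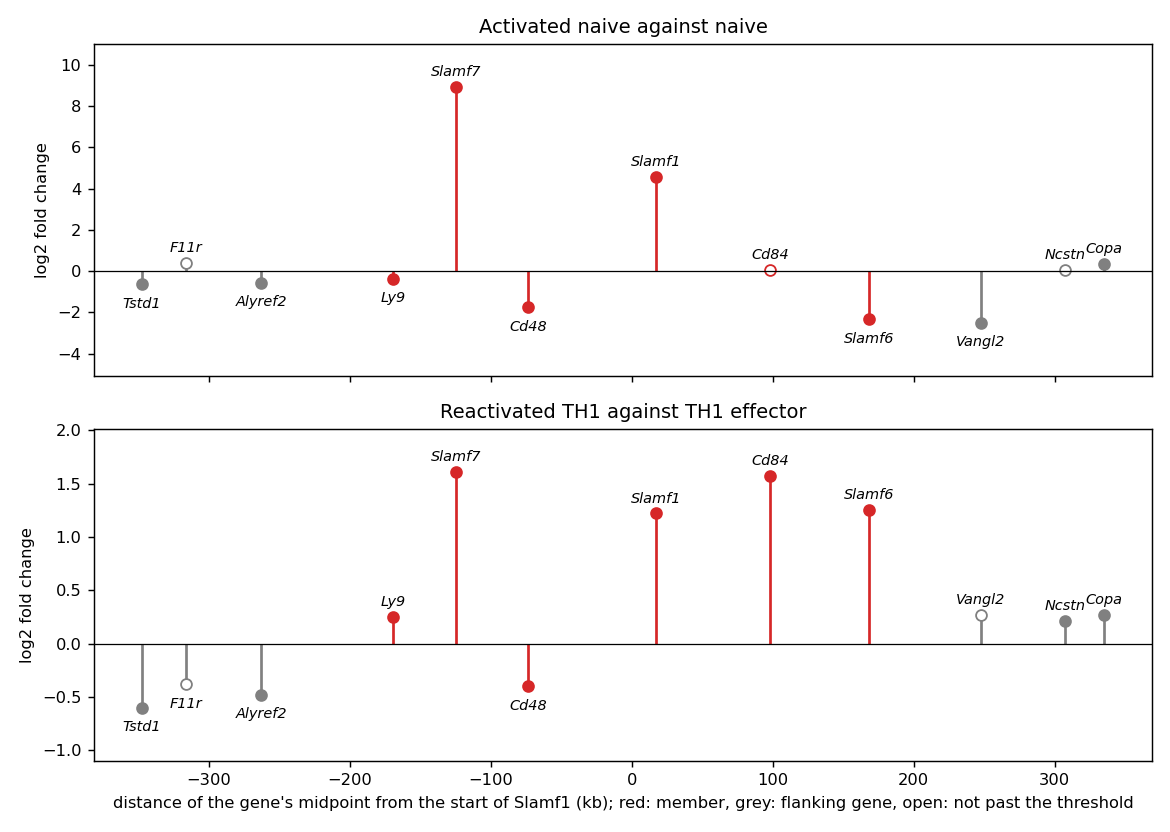
Log2 fold change (y) of the 6 receptor genes (red) and 6 flanking genes (grey) against the distance of each gene's midpoint from the start of Slamf1 in kb (x), for the naive response above and the TH1 response below, with open points where the adjusted p was not below 0.05. Neighbours such as Slamf7 (8.93) and Cd48 (−1.74) point in opposite directions in the naive response.

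Of the other SLAM and CD2 family receptors in the files (Cd244, Slamf8, Slamf9 and Cd2), 2 were tested. Slamf8, known from myeloid cells, had no counts in naive and 1 in activated naive libraries, and averaged 12.5 CPM in TH1 effector libraries and 2.62 CPM after reactivation. Against a floor of 3 counts summed over the naive group it was at least 594-fold higher in TH1 effectors, and it fell 4.74-fold on reactivation (adjusted p = 2.12e-10). Which cells its counts came from was not tested. Cd2, the T cell ligand of CD48 in mice, rose 1.49-fold in stimulated naive cells (log2 0.57, adjusted p = 6.54e-06) and fell 1.27-fold on reactivation of TH1 cells (log2 −0.34, adjusted p = 0.00254). Cd244 averaged 0.0540, 0.0382, 0.362 and 0.227 CPM in the order naive, activated naive, TH1 effector and reactivated TH1, and Slamf9 had at most 4 counts in a library.

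The list of SAP family and SAP signalling partners had 12 of 14 genes tested. The SAP relatives Sh2d1b1 and Sh2d1b2 (EAT-2 and its paralog) were not. Sh2d1b2 had no count in the 24 libraries, which allows 0.0177 to 0.0205 CPM per group at 3 counts over its 6 libraries, and Sh2d1b1 had 25 counts in reactivated TH1 libraries, 4 in TH1 effector libraries and none in the others. In stimulated naive cells 5 of 12 rose and 3 fell (median log2 0.03, against 0.00 over all tested genes), where 81.9% of all tested genes passed. The largest changes were those of Nfkb1 (log2 3.34, SE 0.06, adjusted p = 8.49e-24) and Sh2d2a, which encodes another SH2 adaptor of T cells (log2 1.84, SE 0.07, adjusted p = 9.09e-19). Fyn, the kinase that SAP recruits, named here outside the rule after its values were seen, went from 294 to 1000 CPM (log2 1.77, SE 0.07, adjusted p = 1.96e-18) while Sh2d1a fell. Whether the changes of Fyn and Sh2d1a are linked was not tested. In TH1 effectors against naive 2 were higher and 9 lower (median log2 −0.44, against 0.06), at 84.9% of all tested genes, led by Prkcq, protein kinase C theta (log2 −1.20, adjusted p = 5.67e-18), and Rasa1 (log2 −1.04, adjusted p = 3.16e-13). On reactivation 7 rose and 3 fell (median log2 0.32, against −0.00), at 79.7% of all tested genes, led by the adaptor gene Dok2 (log2 −1.14, adjusted p = 7.75e-13) and by Bcl10 (log2 1.07, adjusted p = 1.08e-09).

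Of the 4 inhibitory partners of SLAM receptors, 2 rose and 1 fell in stimulated naive cells (median log2 0.35, against 0.00), where 81.9% of all tested genes passed. Ptpn6, which encodes SHP-1, rose 1.69-fold (adjusted p = 9.88e-07), and Csk, an inhibitor of Src-family kinases, fell 1.55-fold (adjusted p = 2.29e-10). In TH1 effectors against naive none was higher and 2 were lower (median log2 −0.35, against 0.06, with 84.9% of all tested genes passing), Inpp5d, the lipid phosphatase SHIP-1, 1.94-fold and Csk 1.47-fold. On reactivation 2 rose and 2 fell (median log2 −0.07, against −0.00, with 79.7% of all tested genes passing). Inpp5d fell 2.50-fold (log2 −1.32, adjusted p = 5.51e-15), from 95.2 to 38.0 CPM, and Ptpn11, which encodes SHP-2, rose 1.71-fold (adjusted p = 2.48e-13).

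Genes of T cell fates known to need SAP had 9 of 11 members tested, all but Zbtb16 and Ascl2. In stimulated naive cells 6 rose and 1, Gata3, fell (median log2 2.52, against 0.00), where 81.9% of all tested genes passed, 41.3% higher. Pdcd1, which encodes PD-1, went from 1.45 to 219 CPM (log2 7.25, adjusted p = 8.20e-14) and the costimulator gene Icos from 24.1 to 218 CPM (log2 3.18, adjusted p = 1.39e-19). Sh2d1a fell in the same comparison, and a tie between these changes was not tested. In TH1 effectors 6 were higher and 3 lower than in naive cells (median log2 2.69, against 0.06), where 84.9% of all tested genes passed, 44.6% higher. Il21, the cytokine gene of follicular helper cells, had no naive counts and was at least 3253-fold higher against the same floor, and Maf was 29.4-fold higher (adjusted p = 2.37e-15). On reactivation 5 rose and 2 fell (median log2 1.49, against −0.00), where 79.7% of all tested genes passed, led by Pdcd1 (9.26 to 136 CPM, log2 3.87, adjusted p = 1.43e-10) and the follicular helper factor gene Bcl6 (7.96 to 51.0 CPM, log2 2.71, adjusted p = 4.38e-15).

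Over the 24 libraries, Pearson correlations of log2 CPM describe which members followed each other. The libraries share 4 states and 2 runs, so these are descriptions without a test. Cd48 and Sh2d1a had r = 0.92 and Slamf1 and Slamf7 r = 0.86, while Slamf1 and Cd48 had r = −0.79. Among 9608 other genes that reached 10 CPM in a group, the most alike to Slamf1 were Nr4a2 (r = 0.989), Kdm2b and Npas4 (both 0.987). Nr4a2, a nuclear receptor gene induced by T cell receptor signals, averaged 2.66, 953, 51.1 and 199 CPM in the order naive, activated naive, TH1 effector and reactivated TH1. The most alike to Slamf7 were Bcat1 (0.994), an enzyme gene of branched-chain amino acid breakdown, Smyd2 (0.991) and Hdlbp (0.990). For Cd48 they were Plekhm3 and Tmem173 (both 0.982), the latter encoding the DNA sensor adaptor STING, and Galnt7 (0.980). For Sh2d1a they were Rabgap1l (0.979), Gm2a (0.976) and Thy1 (0.975), the gene of a T cell surface protein that averaged 1030, 180, 865 and 1317 CPM in the same order. Those of Cd84 were Nup153 (0.978), Arntl and 9930104L06Rik (both 0.969), those of Slamf6 were Traf5 (0.958), Pgap1 (0.953) and Nin (0.948), and those of Ly9 were Fntb (0.923), Zfml (0.907) and Dnmbp (0.901).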

How the data were processed

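The authors deposited 1 table of whole-number read counts per library, raw and not pooled. Build mm10 and the tools STAR, HTSeq and DESeq2 are named per the submitters' processing notes. Roles, versions, annotation and strand setting: not given in the sources used here. RNA was prepared with a stranded kit, per the labels' protocols. The 5 lines of unassigned reads stayed out of library sizes and tests, and reads without a feature made up 13.2% to 24.5%. The run is the flow cell in the file names.

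The tests on counts used edgeR 4.0.16 (R 4.3.3): filterByExpr on group, TMM scaling, and 1 quasi-likelihood model (group plus run, all 24 libraries), tested with glmQLFTest over 12584 genes. The threshold was 0.05 on the Benjamini-Hochberg adjusted p, and all adjusted p-values are from edgeR. CPM are TMM-scaled. SE are those of group differences in log2 CPM (prior count 2, group and run, limma 3.58.1). The fit was tested on simulated data. Alternatives were DESeq2 1.42.0, other scalings, filters, terms and subsets of libraries, and a minimum change of 1.5-fold. No 2 libraries of a group agreed within sampling noise (lowest chi-square per degree of freedom 8.61). The 7 members, the lists and the tests were chosen with earlier results of these data known, and the motifs after the values were seen. From each list, the text names up to 2 genes per comparison of largest change that passed the test and reached 5 CPM in either group, and, for each member, the 3 most correlated genes. Emr1 and Sfpi1 are the files' names of Adgre1 and Spi1. Exon lengths are unions of GENCODE M21 exons. Of 7 members 5 matched a RefSeq promoter; Ly9 and Sh2d1a are without one. Depth limits Slamf7 in naive libraries, with 4 to 12 counts, and floors of 3 counts cover counting error only.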

Additional observations from a re-analysis of the deposited data

Results flagged for a closer look

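The TH1 response differed from the naive response in all 7 members by the test of the difference of both fold changes. On the log2 scale the difference was −7.32 for Slamf7, −3.34 for Slamf1, 0.62 for Ly9, 1.33 for Cd48, 1.48 for Cd84, 2.26 for Sh2d1a and 3.57 for Slamf6. These values carry the adjusted p-values given above, from 3.86e-14 to 2.72e-05, where 68.0% of all tested genes passed the same test.

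Reactivated TH1 number 4 stood apart in Sh2d1a with 63.3 CPM, while the other 5 libraries of its group had 44.5 to 48.3 CPM. Of 28 groups of 6 libraries examined (7 genes in 4 groups) it was the only one with a library set apart in this way. Chance sets a library apart in about 1 of every 20 groups, so 1 among 28 is not more than chance gives. Without it the log2 fold change of Sh2d1a on reactivation was 0.04 in place of 0.11, and neither passed the test.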

How the results depend on the processing

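Of 49 fold changes (7 members in 7 comparisons), 37 kept their side of the threshold under each alternative run, and no call reversed. The test against a minimum change of 1.5-fold ended 10 calls, all with fold changes between 1.19 and 1.66, and left 3 members past the threshold in reactivated TH1 against naive in place of 6. The other alternatives altered the calls of 3 results, Ly9 on reactivation, Slamf6 in TH1 effector against activated naive and Slamf7 in that comparison, with the values given above. Leaving out each of the 24 libraries in turn altered no call in 672 fits of a member, and moved a log2 fold change by at most 0.20. With replicate number as a block in place of run, 6, 5, 6, 6, 6, 6 and 7 members passed in the 7 comparisons, as without the block, and it altered no call. Same-numbered libraries deviated together in most pairs of groups (Pearson r 0.08 to 0.42 around the means of group and run, over 0.1 in 35 of 36). The titles write the numbers as M1 to M6 in every group, but the labels do not say what M or a number stands for. Without numbers 5 and 6 of every group no call changed. With library size as the only scaling, the median log2 fold change of all tested genes moved from 0.00 to −0.14 in stimulated naive, from −0.00 to −0.12 in reactivated TH1 and from 0.07 to 0.20 in TH1 effector against activated naive cells.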

Other observations

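Within the TH1 effector group 2 receptor genes were not at one level in both runs. Slamf1 was at 81.3, 82.9 and 89.7 CPM in the 3 libraries of the first run and at 119, 125 and 128 CPM in those of the second. Slamf7 averaged 115 CPM in the first run and 69.2 CPM in the second, with overlapping libraries. In reactivated TH1 libraries the run means were 235.8 and 245 CPM for Slamf1 and 272 and 281 CPM for Slamf7. With 3 libraries a run these differences were not tested.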
